A study of Mus musculus with 2 samples.

Results

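Fos, Nr4a1, Gadd45g and Hspa1b encode proteins of the immediate early and stress responses, and all 4 were found among the 628 genes of the deposited expression table. They were taken by name, and were chosen by their FPKM values in these same libraries, so that their ratios are a description and not a test. Whole brown adipose tissue was sequenced as 1 library from 3bKO mice and 1 library from fl/fl mice, both on the C57BL/6 strain. Mice of both genotypes had been fed a diet with 60% fat for 20 weeks. The labels give fl/fl as the control. They do not spell out the deleted gene, and neither the Cre line, the sex and age of the mice nor the number of animals behind a library is stated there. The genotype was therefore not checked on its target gene. The name of the deposited table contrasts Myf5 with D3b without linking either term to a genotype, so every direction below rests on the column headings, which hold the sample titles.

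Immediate early genes are transcribed within minutes of a signal, from latent factors already present in the cell, and their transcripts are short-lived. In brown fat, noradrenaline raises cAMP, and several of them answer that signal. Heat shock proteins are chaperones that keep other proteins folded, and their inducible members are switched on by heat shock factor 1. Because both responses are fast, their transcripts are known to change during the dissection of a tissue. The labels state that the fat was frozen in liquid nitrogen after removal, but not how long this took, at what hour it was done or in which order the mice were handled. The effect of handling on the values was not tested.

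The members lie on separate chromosomes in GRCm38.p6, a patch release of the mm10 assembly. Fos, on chromosome 12 from 85473890 to 85477274, encodes a subunit of the transcription factor AP-1. Nr4a1, on chromosome 15 from 101253902 to 101274795, encodes the orphan nuclear receptor Nur77. Gadd45g, on chromosome 13 from 51846675 to 51848475, encodes a small adaptor protein that activates stress kinases. Hspa1b, on chromosome 17 from 34956429 to 34959238, encodes the inducible Hsp70 chaperone. The 250 bases upstream of a transcript start, from RefSeq, are shown since the members are known for signal-dependent promoters. For Nr4a1 the start in the RefSeq promoter table lies within the gene span given above, downstream of its first base, and other starts of this gene were not used here. Capitals mark exact matches, on either strand, to the cAMP response element half-site (TGACG, or CGTCA on the other strand), the TATA box (TATAAA) and the heat shock element pair (GAANNTTC).
Fos, chr12:85473640-85473889, plus strand: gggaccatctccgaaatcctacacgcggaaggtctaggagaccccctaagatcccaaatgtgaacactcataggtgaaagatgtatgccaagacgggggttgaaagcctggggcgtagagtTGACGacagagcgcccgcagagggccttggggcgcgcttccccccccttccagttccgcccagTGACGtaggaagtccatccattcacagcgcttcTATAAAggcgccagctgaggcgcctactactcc
Nr4a1, chr15:101266596-101266845, plus strand: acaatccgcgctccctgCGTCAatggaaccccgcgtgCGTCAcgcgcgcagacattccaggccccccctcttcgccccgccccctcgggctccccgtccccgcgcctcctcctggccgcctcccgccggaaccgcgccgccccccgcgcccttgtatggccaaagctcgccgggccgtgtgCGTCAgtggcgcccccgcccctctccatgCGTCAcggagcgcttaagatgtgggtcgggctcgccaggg
Gadd45g, chr13:51846425-51846674, plus strand: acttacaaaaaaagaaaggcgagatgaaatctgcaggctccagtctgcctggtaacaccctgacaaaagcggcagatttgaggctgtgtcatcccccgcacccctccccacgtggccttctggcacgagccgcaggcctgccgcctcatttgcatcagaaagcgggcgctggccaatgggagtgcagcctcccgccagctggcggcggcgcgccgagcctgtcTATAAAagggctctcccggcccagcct
Hspa1b, chr17:34959239-34959488, minus strand: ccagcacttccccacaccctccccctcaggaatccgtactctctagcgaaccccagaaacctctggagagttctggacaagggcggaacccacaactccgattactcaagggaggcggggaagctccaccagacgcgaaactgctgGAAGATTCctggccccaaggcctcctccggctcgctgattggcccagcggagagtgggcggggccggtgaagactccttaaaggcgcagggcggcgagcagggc

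The Nr4a1 window held 4 half-sites, starting 233, 213, 69 and 40 bases before the start of transcription. The Fos window held 2, starting 129 and 66 bases before it, and those of Gadd45g and Hspa1b held 0. Of 32851 RefSeq windows of this length, 17.8% held at least 1 such half-site, with every annotated start counted. A TATA box was found in the windows of Fos and Gadd45g, and in 12.4% of all windows. The Hspa1b window held the heat shock element pair 104 bases before the start, a match present in 6.69% of all windows. The same pair in the other orientation (TTCNNGAA), the CArG box of serum response factor and the response element of the NR4A receptors (AAAGGTCA) had 0 matches in the 4 windows. They were present in 7.17%, 1.47% and 1.34% of all windows. Bases farther upstream than the windows were not searched. A count of 0 therefore does not show that a gene lacks the element. No marked match overlapped another, and a match shows only that the letters are there.

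The members did not share a direction. Fos was about 10 times as high and Gadd45g was less than 2-fold higher in 3bKO, whereas Nr4a1 and Hspa1b were lower by more than 2-fold. Values are FPKM, a fragment count corrected for the length of the transcript and the size of the library, so that levels can be set beside each other between genes. Each genotype has 1 library, so the error between replicates is unknown, no p-value was computed, and each ratio compares 2 libraries. Past 2-fold, 1 member was higher, where 47.1% of the whole table was, and 2 were lower, where 4.46% of it was. At any listed ratio, 2 members were higher and 2 were lower, where 81.5% and 18.5% of the table were. Since the values chose the members, nothing is read from these counts.

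**Figure D1:**
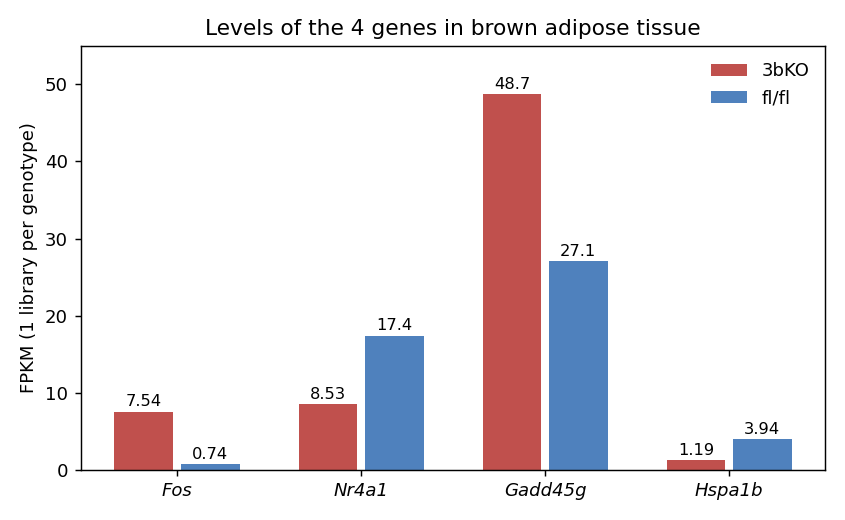
FPKM of the 4 genes in the 3bKO library (red, left bar) and the fl/fl library (blue, right bar), with 1 library per genotype and therefore no error bars. Gadd45g was the most abundant of the 4 in both libraries, at 48.7 FPKM in 3bKO and 27.1 FPKM in fl/fl, and the bars of Nr4a1 and Hspa1b are shorter in 3bKO.

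Fos was 7.54 FPKM in 3bKO and 0.74 FPKM in fl/fl. This is a ratio of 10.2, or 3.35 on the log2 scale. Among the 605 genes above the lowest listed value in both libraries, 79 had a larger ratio. Fos was the least abundant member in fl/fl, and its fl/fl level lies under 1 FPKM. With at least 1 FPKM required in both libraries it is left out, and with a pseudocount of 1 FPKM its log2 ratio is 2.30.

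Nr4a1 was 8.53 FPKM in 3bKO and 17.4 FPKM in fl/fl, and so was 2.04-fold lower in 3bKO, a log2 ratio of -1.03. It stands just past the 2-fold threshold, and with a pseudocount of 1 FPKM its log2 ratio of -0.95 lies within 2-fold. Nr4a1 is induced by adrenergic signals in brown fat and by exercise in muscle. It was more abundant than Fos in both libraries, by a small margin in 3bKO.

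Gadd45g was 48.7 FPKM in 3bKO and 27.1 FPKM in fl/fl. Its ratio of 1.80, or 0.85 on the log2 scale, is below the median of all genes above the lowest listed value, 0.95. Its 2 relatives Gadd45a and Gadd45b were not analysed here.

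Hspa1b was 1.19 FPKM in 3bKO and 3.94 FPKM in fl/fl, 3.31-fold lower in 3bKO at a log2 ratio of -1.73. Only 9 of the 605 genes had a lower ratio. With a pseudocount of 1 FPKM the log2 ratio is -1.17. Hspa1b has a near-identical neighbour, Hspa1a, on chromosome 17 from 34969359 to 34972156. Their coding sequences in GENCODE vM1 are identical at 99.4% of 1929 aligned positions, and their 250-base promoter windows differ at 3 positions. Reads of one can be assigned to the other, and Hspa1a was not analysed here, so the Hspa1b value is uncertain as that of a single gene.

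The order of the levels differed between the libraries. In 3bKO it was Gadd45g, Nr4a1, Fos and Hspa1b, from high to low. In fl/fl it was Gadd45g, Nr4a1, Hspa1b and Fos. Nr4a1 and Fos, neighbours in 3bKO, differed there by 0.99 FPKM, and without replicates it cannot be said whether such neighbours differ beyond the spread between mice.

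Genes of the same families were counted next. In these lists and those below, members on a list are part of its counts and medians. The lists were also chosen with earlier results of these data known. Their counts and medians are therefore a description and not a test. Of 25 immediate early transcription factors, 5 were among the genes analysed, 4 of them higher and 1 lower in 3bKO, all past 2-fold, with a median log2 ratio of 2.11. The share that was higher is close to the 81.5% of the whole table, of which 47.1% was higher and 4.46% lower past 2-fold. Over all genes above the lowest listed value in both libraries, the median was 0.95. Fosb, which encodes another AP-1 subunit, had values close to those of Fos, at 5.34 FPKM in 3bKO and 0.67 FPKM in fl/fl, a ratio of 7.97. Egr1, a zinc finger factor, was 18.2 FPKM in 3bKO and 6.77 FPKM in fl/fl, a ratio of 2.69. Its relative Egr2 was 1.99 FPKM in 3bKO and 0.46 FPKM in fl/fl, a ratio of 4.33. Nr4a1 was the member of this list that was lower in 3bKO. The Jun genes, which encode the partners of Fos in AP-1, and the other NR4A genes were not analysed here. Genes outside the table cannot be called changed or unchanged, since it holds a selection in which the smallest absolute log2 ratio is 0.50.

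Of 20 immediate early feedback regulators and secreted products, 2 were analysed, 1 higher and 1 lower in 3bKO. In the whole table, 81.5% was higher and 18.5% lower. Ccn2, a matricellular growth factor listed under its older symbol Ctgf, was 6.9 FPKM in 3bKO and 2.34 FPKM in fl/fl, a ratio of 2.95. Sik1, a salt-inducible kinase induced by cAMP, was 12.1 FPKM in 3bKO and 17.4 FPKM in fl/fl, which is 1.44-fold lower in 3bKO. Of 14 genes of the Gadd45 family and p53 targets, Plk2 was analysed beside Gadd45g. This polo-like kinase was 13.6 FPKM in 3bKO and 8.2 FPKM in fl/fl, a ratio of 1.66.

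**Figure D2:**
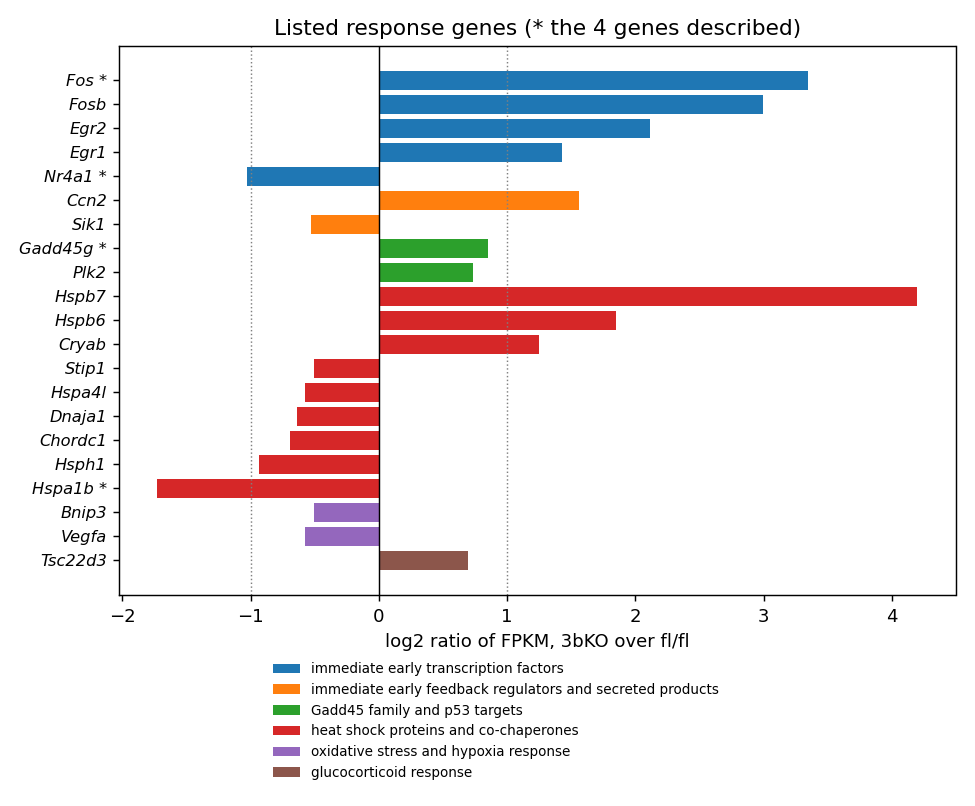
Log2 ratio of FPKM, 3bKO over fl/fl, of the 21 genes analysed out of the 122 on the 7 immediate early and stress lists, coloured by list, with dotted lines at 2-fold. Bars to the right are higher in 3bKO. The 3 small heat shock genes point right and the other 6 heat shock genes point left, Hspa1b farthest at -1.73.

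Of 27 heat shock genes, 9 were analysed, 6 lower and 3 higher in 3bKO, where 18.5% of the whole table was lower and 81.5% higher, and their median log2 ratio was -0.58 against 0.95 over the table. Past 2-fold, 1 was lower and 3 were higher, where 4.46% and 47.1% of the table were. The 6 lower ones encode chaperones of the Hsp70 and Hsp110 families and co-chaperones of Hsp70 and Hsp90, with log2 ratios between -1.73 and -0.51. Of these, Hspa1b alone was past 2-fold, and it was the least abundant of the 6 in both libraries. Hsph1, an Hsp110 that exchanges the nucleotide of Hsp70, was 21.2 FPKM in 3bKO and 40.7 FPKM in fl/fl, 1.92-fold lower in 3bKO. Chordc1, a co-chaperone of Hsp90, was 27.2 FPKM in 3bKO and 44.0 FPKM in fl/fl. Dnaja1, a co-chaperone of Hsp70, was 34.6 FPKM in 3bKO and 53.9 FPKM in fl/fl. These differences are 1.61-fold and 1.56-fold, lower in 3bKO. Hspa4l, another Hsp110, was 10.2 FPKM in 3bKO and 15.3 FPKM in fl/fl. Stip1, which links Hsp70 to Hsp90, was 49.2 FPKM in 3bKO and 70.1 FPKM in fl/fl, the most abundant of the 6 in both libraries. Of these 5 genes, the windows of Hsph1 and Dnaja1 also held a heat shock element pair in one of the orientations, at both annotated starts of Hsph1 and at 1 of the 3 of Dnaja1. So did 1 of the 2 windows of Hspb6, a heat shock gene that was higher in 3bKO. Outside the heat shock list, a window of Egr2 and the window of Pde4d held a pair as well. Among all windows, 6.69% held GAANNTTC and 7.17% held TTCNNGAA.

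The 3 higher heat shock genes encode small heat shock proteins, which are abundant in striated muscle. Hspb7 was 18.9 FPKM in 3bKO and 1.03 FPKM in fl/fl, a ratio of 18.4. Hspb6 was 93.2 FPKM in 3bKO and 25.8 FPKM in fl/fl, a ratio of 3.61, and Cryab was 76.3 FPKM in 3bKO and 32.1 FPKM in fl/fl, a ratio of 2.38. Splitting the list into small and other heat shock genes was done after these values were seen. The split describes the listed genes only. Outside the list, Hspa12a, a distant Hsp70 relative, was higher in 3bKO at a ratio of 1.60. So was Unc45b, a chaperone of muscle myosin, at a ratio of 1.67. Both were chosen after their values were seen. The other stress lists had few genes analysed. Of 14 genes of the oxidative stress and hypoxia response, Vegfa was 146 FPKM in 3bKO and 218 FPKM in fl/fl, and Bnip3 was 205 FPKM in 3bKO and 291 FPKM in fl/fl. Of 6 glucocorticoid response genes, Tsc22d3 was 35.4 FPKM in 3bKO and 21.8 FPKM in fl/fl. Of 16 genes of the unfolded protein and integrated stress response, 0 were analysed.

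Fos, Nr4a1 and Gadd45g are also on a list of 17 genes that answer adrenergic signals and cAMP in brown fat. Of these, 8 were analysed, 3 higher and 5 lower in 3bKO, with 2 past 2-fold each way. Of the whole table, 81.5% was higher and 18.5% lower, and 47.1% and 4.46% past 2-fold. The higher ones were Fos, Fosb and Gadd45g. The lower ones were Nr4a1 and Sik1 together with Dio2, the deiodinase that activates thyroid hormone, Ppargc1a, a coactivator of mitochondrial genes, and the cAMP phosphodiesterase Pde4d. Dio2 was 2.33-fold, Ppargc1a 1.86-fold and Pde4d 1.65-fold lower in 3bKO. Pde4d was 19.8 FPKM in 3bKO and 32.7 FPKM in fl/fl.

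Markers of other cell types also differed between the libraries. Whole tissue was sequenced, so fewer cells of a type and less RNA per cell cannot be told apart. The marker lists were chosen with earlier results of these data known, so their counts are a description and not a test. All 25 skeletal muscle markers were analysed and were higher in 3bKO, where 81.5% of the whole table was. Past 2-fold, 24 of them were higher, where 47.1% of the table was. Their summed level was 2710 FPKM in 3bKO and 207 FPKM in fl/fl. The median log2 ratio was 4.82 over the 24 above the lowest listed value. The exception was Tnnt1, listed at 0.01 in fl/fl. The 2 most abundant, Tnnt3 and Acta1, were 440 FPKM and 412 FPKM in 3bKO, against 12.4 FPKM and 10.5 FPKM in fl/fl. Of 15 macrophage markers, 14 were analysed and all were higher in 3bKO, where 81.5% of the whole table was, summing to 575 FPKM in 3bKO and 257 FPKM in fl/fl. Past 2-fold, 10 of these 14 were higher, where 47.1% of the table was. Their median log2 ratio was 1.15, against 0.95 over the table. The most abundant were Lyz2, at 259 FPKM in 3bKO and 118 FPKM in fl/fl, and Ctss, at 60.6 FPKM in 3bKO and 24.6 FPKM in fl/fl. Of 12 brown adipocyte markers, 3 were analysed and were lower in 3bKO, where 18.5% of the whole table was. Past 2-fold, 1 of them was lower, where 4.46% of the table was. These markers summed to 92.7 FPKM in 3bKO and 159 FPKM in fl/fl. The most abundant was Kcnk3, a potassium channel, at 54.6 FPKM in 3bKO and 78.2 FPKM in fl/fl, and Dio2 came next. Ucp1, the defining marker, was not analysed here. Of 9 blood cell markers, 2 were analysed and lower in 3bKO, 1 of them past 2-fold, beside the same 18.5% and 4.46% of the table. Hba-a2 was 262 FPKM in 3bKO and 422 FPKM in fl/fl, and Alas2 was 12.1 FPKM in 3bKO and 27.1 FPKM in fl/fl. Of 8 endothelial markers, Vwf was analysed, at 5.86 FPKM in 3bKO and 3.87 FPKM in fl/fl. The part of these cell types in the values of Fos, Nr4a1, Gadd45g and Hspa1b was not tested.

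**Figure D3:**
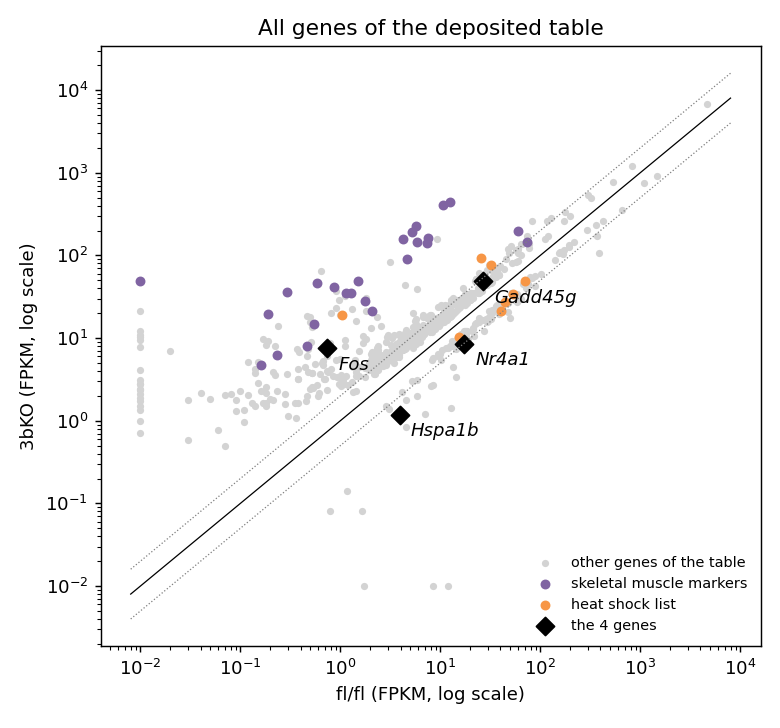
FPKM in 3bKO (vertical) against fl/fl (horizontal) for all 628 genes, both axes on a log scale, with the line of equality and dotted lines at 2-fold. Fos lies above the dotted lines at 7.54 FPKM in 3bKO and 0.74 FPKM in fl/fl, near the edge of the muscle markers (purple), and Hspa1b lies below them with 1.19 FPKM in 3bKO and 3.94 FPKM in fl/fl.

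For each member, the 2 genes outside the response lists with the closest levels were found, by the distance of the log2 FPKM over the 2 libraries. Over so few libraries such likeness says only that the levels are close. Closest to Fos were Pdlim3, a protein of the muscle Z-disc, at 6.96 FPKM in 3bKO and 0.75 FPKM in fl/fl, and Tcea3, a transcription elongation factor, at distances of 0.12 and 0.23. Closest to Nr4a1 were Cenpo, a centromere protein, and Car14, a carbonic anhydrase, at distances of 0.17 and 0.24. Closest to Gadd45g were Scd2, a fatty acid desaturase, at 49.8 FPKM in 3bKO and 27.2 FPKM in fl/fl, and the collagen VI gene Col6a1, at distances of 0.03 and 0.04. Closest to Hspa1b were Lancl3, at 1.09 FPKM in 3bKO and 3.91 FPKM in fl/fl, and Car8, at distances of 0.13 and 0.43.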

How the data were processed

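Total RNA of brown adipose tissue was enriched for polyadenylated mRNA and sequenced on an Illumina instrument, with 1 library per genotype. The deposited values are FPKM calculated by the authors, rounded to 2 decimals. The submitters' processing notes name RSEM, which estimates transcript abundance, and mm10, with no version. The table lists 628 genes, and its name marks a filtered list of genes, with the filter not given in the sources used here. Its lowest value is 0.01, at which 3 genes stand in 3bKO and 20 in fl/fl, and no ratio is given for them. RSEM estimates and this rounding do not allow whole reads to be recovered, so the depth and the counting error are unknown.

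Gene identifiers were paired with symbols of RefSeq on GRCm38.p6, and 627 matched. The FPKM of 3bKO was divided by that of fl/fl, and genes past 2-fold were counted. No test was run. Genes named were the 4 members, every analysed gene of 8 response lists, the 2 most abundant of each of 5 marker lists and the 2 nearest genes per member. The members and the lists were chosen with earlier results of these data known. Alternatives were thresholds of 1.5-fold, 3-fold and 4-fold, a minimum of 1 FPKM, and pseudocounts of 0.1 and 1. Promoters of all 4 members matched the RefSeq table. Hspa1b and Hspa1a coding sequences were aligned with Biopython 1.88. Calculations used Python 3.11.15 and pandas 2.3.3, figures Matplotlib 3.10.9, and the code was tested on simulated data.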

Additional observations from a re-analysis of the deposited data

How the results depend on the processing

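The 4 ratios kept their direction with pseudocounts of 0.1 and 1 FPKM, and the only one to move by over 1.5 times was that of Fos, at a log2 ratio of 2.30 with 1 FPKM. For thresholds of 1.5-fold, 3-fold and 4-fold, 468, 175 and 148 genes of the table were higher in 3bKO, against 296 at 2-fold, and 87, 16 and 10 were lower, against 28. At least 1 FPKM in both libraries left 174 higher. Of the members, 2 were higher at 1.5-fold and 0 under the same minimum, against 1, since Fos is below that minimum in fl/fl. Lower members were 1 at 3-fold, 0 at 4-fold and 1 with a pseudocount of 1 FPKM, against 2. Of the 21 genes analysed on the immediate early and stress lists, 5 were higher at 3-fold, 4 at 4-fold and 5 under the minimum of 1 FPKM in both libraries, against 8, and 5 were lower at 1.5-fold, 1 at 3-fold, 0 at 4-fold and 1 with a pseudocount of 1 FPKM, against 2. A stricter threshold or minimum admits fewer genes, and a pseudocount draws log2 ratios toward 0. Every other alternative kept its count within 1.5 times. No paired analysis was possible because each genotype has 1 library. Another scaling of the libraries was not run, since the table holds selected genes only. The variation between mice is unknown under every setting, as neither replicates nor depth are at hand.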

Other observations

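Some genes outside the lists were also looked at, chosen after their values were seen. Whether they take part in the same responses was not tested. Rgs1, a regulator of G protein signaling found in leukocytes, was 3.98 FPKM in 3bKO and 0.74 FPKM in fl/fl, a ratio of 5.38. Apold1, an early response gene of the endothelium, was 7.46 FPKM in 3bKO and 14.3 FPKM in fl/fl, 1.91-fold lower in 3bKO. Rhob, a small GTPase with a short-lived transcript, was 80.8 FPKM in 3bKO and 52.6 FPKM in fl/fl, and Noct, a circadian phosphatase, was 25.9 FPKM in 3bKO and 38.3 FPKM in fl/fl. Among chaperones, Unc45b, which folds muscle myosin, was 9.78 FPKM in 3bKO and 5.86 FPKM in fl/fl, and Hspa12a, a distant Hsp70 relative, was 19.5 FPKM in 3bKO and 12.2 FPKM in fl/fl.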
